A study of Mus musculus with 8 samples.

Results

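Bromodomain genes were followed in whole testes of 27-day-old mice with and without a mutation of Brwd1, itself a bromodomain gene. The set holds 35 genes: the 3 members of the Brwd1 family (Brwd1, Brwd3 and Phip) and 32 other genes that encode bromodomain proteins. Members were taken by gene symbol from probe sets that the platform annotation assigns to a single gene, which gave 109 of the 45037 probe sets that are not array controls. A probe set is a group of short DNA probes that together report 1 transcript region. All 35 genes had at least 1 probe set bright enough to test, and 87 of the 109 probe sets passed that filter, which asked for a mean over the 8 arrays above the 40th percentile. The 22 that did not pass had means of 2.78 to 64.4. Where 1 value per gene is given, it comes from the gene's probe set with the highest mean, and 35 of the 13787 genes tested are members. RNA from 1 testis sample per mouse was hybridised to 1 Affymetrix array per mouse, with 4 mice labelled wild type and 4 labelled Brwd1-/-. The control mice are wild type in their titles and in the series' design text, whereas their genotype entries read Brwd1+/-, and they are called wild type here. The sources used here do not state what the Brwd1 mutation alters, or the strain, so no Brwd1 probe set can serve as a check of the genotype. In whole tissue, fewer cells of a type and less RNA per cell cannot be told apart.

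Bromodomains are protein modules that bind acetylated lysines, mainly on histone tails, and so read a mark that acetyltransferases write and deacetylases erase. Brwd1, Brwd3 and Phip combine bromodomains with WD repeats. Brdt is the testis-specific member of the BET family and is known for its part in meiosis and in the replacement of histones by transition proteins and protamines in spermatids. The other members include acetyltransferases, subunits of chromatin remodellers and transcriptional cofactors.

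Every array was scaled to the same trimmed mean of 500, and the array medians ranged from 90.7 to 124. The summed intensity of 14 pachytene spermatocyte markers was 64059.8 to 70530.1 in wild type and 57407 to 69225 in mutants. No other tissue was measured for comparison. Of the 14, 0 were called between the genotypes without a block. With the replicate number or the replicate pair as a block, 2 (Syce2 and Pgk2) were called lower in mutants. Late spermatid markers, 15 genes, summed to 95409.6 to 174845 in wild type and 6284 to 38769 in mutants, and the number that fell in the mutants was 2 without a block, 14 with the replicate number as a block and 9 with the replicate pair as a block. In both genotypes replicates 3 and 4 stood apart from replicates 1 and 2. By the test described below, 22.2% of all genes were higher in replicates 3 and 4 and 20.3% were lower. Of 11 epididymis markers 10 were higher in replicates 3 and 4 (summed intensity 49575 to 61673 against 3293 to 4574). Of 8 Leydig cell markers 5 were lower there (summed intensity 21783 to 30863 against 33313 to 37622). Among the actin control transcript's probe sets, the 5' one was at -0.83 log2 units in replicates 3 and 4 relative to 1 and 2, and the 3' one at -0.39. Pachytene markers had 6 of 14 higher there and 2 lower, spermatogonia markers 2 of 14 and 7, Sertoli cell markers 1 of 14 and 5, and macrophage and leukocyte markers 1 of 12 and 6. Endothelial markers had 2 of 11 higher and 1 lower, peritubular markers 1 of 9 and 0, and blood markers 0 of 1. The labels name no difference between these replicates. The part of all these differences, between genotypes and between replicates, in the members' values was not tested.

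No member was called different between the genotypes. With limma and Benjamini-Hochberg adjustment over all genes, 0 of 35 members were called at an adjusted p under 0.05, against a background of 0.283% of all genes. Adding a block for the replicate number again called 0 of 35 (background 3.45%), and a block for the replicate pair (1 and 2, or 3 and 4) called 0 of 35 (2.63%). At an unadjusted p under 0.05, limma gave 1, 2 and 2 of the 35 members in these 3 fits, against 9.56%, 17.1% and 17.6% of all genes. The background without a block, 39 genes, depended on single mice: it was 185 with mutant replicate 1 left out, 20 with mutant replicate 4 left out, and 0 with wild-type replicate 1, 2 or 3 or mutant replicate 3 left out. The members called were 0 in each of these fits. The members' differences, on the log2(intensity + 16) scale and as mutant minus wild type, ran from -0.28 (Trim66) to 0.32 (Brpf1), with a median of 0.038 against 0.065 for all genes. Of the 35 differences 22 were above 0 and 13 below. The median's sign turned with the scaling, from 0.059 after quantile normalization to -0.0031 after centring each array on its median. A p above the threshold does not show equal levels, so the intervals matter more. The 95% interval of the difference lay inside a 2-fold change in either direction for 31 of 35 members without a block, against 80.5% of all genes. With either block it did for 35 of 35, against 90.4% (replicate block) and 89.9% (pair block) of all genes. The 4 exceptions without a block were Phip, Taf1, Atad2 and Atad2b, all of them called higher in replicates 3-4 than in replicates 1-2. Over the 87 probe sets, 0 were called in the unblocked fit (background 0.111%), 0 under the replicate block (2.33%) and 0 under the pair block (1.77%), while 4, 7 and 7 had an unadjusted p under 0.05, against 7.41%, 14.3% and 14.5% of all tested probe sets. Without a block, 67 of the 87 intervals lay inside a 2-fold change, against 79.7% of all tested probe sets. With either block 83 did, against 91.5% (replicate block) and 91.0% (pair block).

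**Figure D1:**
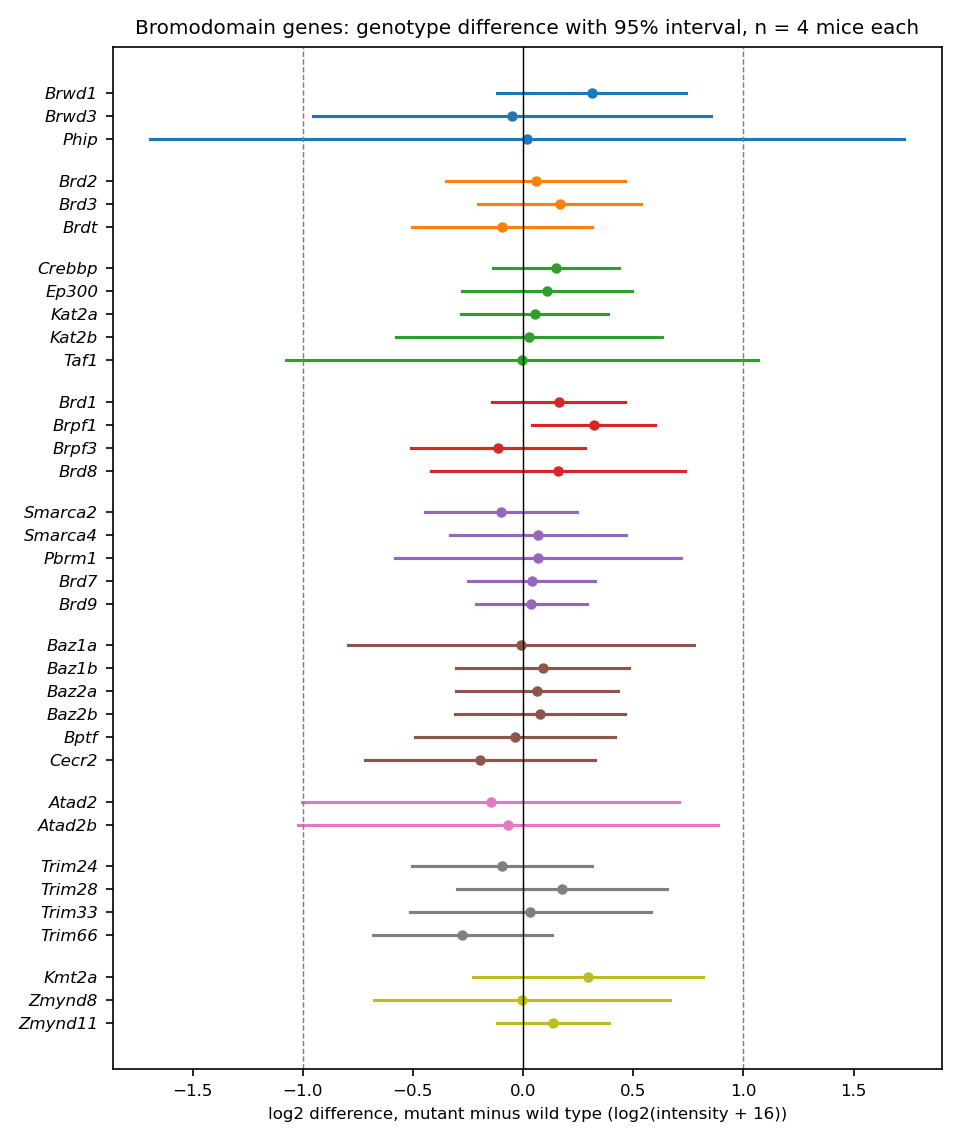
Log2 difference between the genotypes (mutant minus wild type, horizontal axis, log2(intensity + 16)) for each of the 35 genes, grouped and coloured by role. Points are limma estimates without a block, lines are 95% intervals (4 mice per genotype), and dashed lines mark a 2-fold change; 31 of the 35 intervals lie between the dashed lines, and Brpf1 has the interval that lies above 0.

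Between replicates 3-4 and 1-2, in contrast, calls were common among all genes, members included. Phip, Taf1, Atad2b and Brwd3 were higher in replicates 3-4 by at least 1 log2 unit in the estimate, and Trim28 and Smarca4 were lower. The 2 pairs were compared because the arrays were known to divide in this way, so the counts describe these 8 arrays and are no test of a condition of the study. With genotype as a covariate, limma called 18 of 35 members against 42.5% of all genes: 16 were higher in replicates 3-4 (background 22.2%) and 2 were lower (20.3%). The members' median shift was 0.28 log2 units against 0.014 for all genes. The 4 values of replicates 3-4 all lay above the 4 values of replicates 1-2 for 13 members (19.1% of all genes) and all below for 1 member (18.4%). The counts depended on the scaling. Quantile normalization gave 15 members higher and 1 lower, against 19.6% and 24.9% of all genes. Centring each array on its median, which moved the median of all genes to -0.23, gave 8 higher and 6 lower, against 13.9% and 35.1% of all genes. On that scale the members' median was 0.037. Atad2, Atad2b, Baz1a, Brd8, Brwd3, Kat2b, Phip and Taf1 were higher and Trim28 was lower under all 3 scalings. Without wild-type replicate 1, mutant replicate 2 or mutant replicate 4 the members called numbered 11 instead of 18, against 34.5%, 34.8% and 31.4% of all genes. Within wild type alone (2 mice against 2) 4 members were called (8.05% of all genes), and within mutants alone 12 (29.9%). The shift had the same direction in both genotypes for 30 of 35 members: 23 up and 7 down. Across the 35 members the shift in wild type and the shift in mutants had a Pearson correlation of 0.88 and a Spearman correlation of 0.85. Across all 13787 genes these were 0.79 and 0.72. The points are genes of the same 8 arrays and are not independent.

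**Figure D2:**
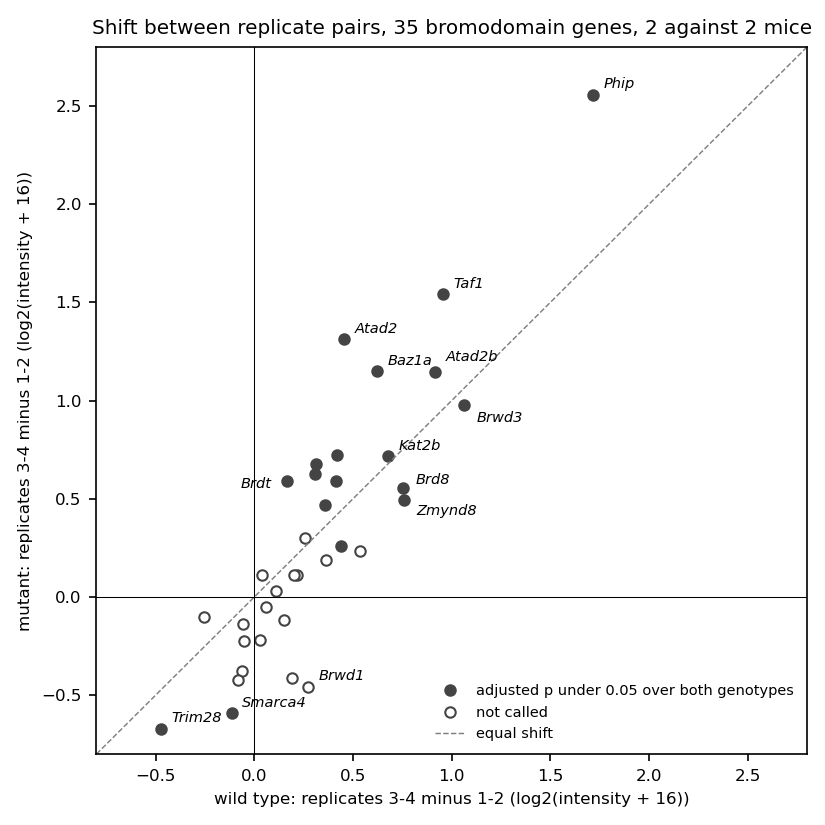
Shift between replicate pairs (replicates 3-4 minus 1-2, log2(intensity + 16)) in wild type (horizontal axis) and in mutants (vertical axis) for the 35 genes, each from 2 mice against 2. Filled points were called over both genotypes (18 genes), open points were not; Phip lies highest in both genotypes, and Trim28 and Smarca4 lie below 0 in both.

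Brwd1, on chromosome 16, was still measured in the Brwd1-/- mice, and no probe set for it was lower there than in wild type beyond the spread. Its 5 probe sets differed from each other. The brightest, 1433955_at, read 304, 222, 306 and 329 in wild-type mice 1 to 4 and 413, 436, 324 and 287 in mutant mice 1 to 4, numbered by replicate and kept in this order throughout. Mutant mice 1 and 2 were the highest of the 8, while mutant mice 3 and 4 lay within the wild-type range. The mutant minus wild-type difference was 0.31 (SE 0.19, 95% interval -0.12 to 0.74), with a limma adjusted p of 0.766. It was 0.68 in replicates 1-2 and -0.052 in replicates 3-4. Its shift between replicate pairs, -0.093, did not pass the test (adjusted p = 0.708). Probe set 1427322_at read 226, 207, 396 and 528 in wild type and 236, 134, 525 and 519 in mutants. Here the 4 values of replicates 3-4 lay above all 4 values of replicates 1-2, and the genotypes overlapped fully. The shift between replicate pairs was 1.25 (SE 0.19, adjusted p = 0.00103) in the limma fit over probe sets, and the genotype difference was -0.036 (-1.07 to 0.999). Probe set 1452321_at behaved alike, at 197, 229, 403 and 510.2 in wild type and 175, 104, 435 and 492 in mutants. Its shift was 1.35 (SE 0.20, adjusted p = 0.000852) and its genotype difference -0.28 (-1.39 to 0.83). Probe set 1452322_a_at was dimmer, at 95.7, 118, 166 and 132 in wild type and 68.0, 113, 147 and 116 in mutants, with a genotype difference of -0.20 (-0.75 to 0.36). The fifth probe set, 1452503_a_at, was below the filter, at 5.60 to 13.4 in wild type and 3.48 to 34.2 in mutants. Of the 4 tested probe sets 3 had a genotype difference below 0 and 1 above, and all 4 intervals included 0.

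Brwd3, an X-linked relative of Brwd1, was dim in the testis and was higher in replicates 3-4. Its brightest probe set, 1440881_at, read 51.8, 60.8, 108 and 167 in wild type and 54.1, 57.5, 161 and 97.0 in mutants. The values of replicates 3-4 all lay above those of replicates 1-2, by 1.02 (SE 0.21, adjusted p = 0.00426), and the genotypes overlapped, with a difference of -0.05 (SE 0.40, 95% interval -0.95 to 0.85). Probe set 1439775_at read 47.1, 55.7, 119.7 and 164 in wild type and 46.5, 47.4, 119 and 142 in mutants. It repeated the order of the pairs, with a shift of 1.21 (SE 0.18, adjusted p = 0.000822) and a genotype difference of -0.097 (-1.08 to 0.89). The other two were below the filter: 1441182_at read 5.14 to 72.3 and 1441451_at 0.717 to 6.18 over the 8 mice.

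Phip, which encodes a protein that binds insulin receptor substrate proteins, had the largest shift between replicate pairs of the 35 members, and on chromosome 9 is the other relative of Brwd1. Probe set 1429004_at read 209, 297, 724 and 1010.5 in wild type and 236, 144, 1182 and 1149.9 in mutants. All 4 mice of replicates 3-4 lay above the other four, by 2.14 (SE 0.23, adjusted p = 0.000373), a 4.40-fold difference. The genotype difference was 0.019 (SE 0.75, 95% interval -1.69 to 1.73) without a block. With the replicate block the interval narrowed to -0.56 to 0.59. Phip passed the threshold for the shift in all 21 alternatives. Probe set 1423432_at read 79.6, 136, 420.1 and 512 in wild type and 111, 109, 789 and 652 in mutants, a shift of 2.27 (SE 0.19, adjusted p = 7.72e-05). Probe set 1438535_at read 187, 150.4, 222 and 300.2 in wild type and 166, 162, 405 and 454 in mutants, a smaller shift of 0.94 (SE 0.18, adjusted p = 0.00329). In both, the pairs did not overlap. Probe set 1440653_at read 21.9, 63.5, 70.9 and 94.9 in wild type and 87.8, 84.8, 149.7 and 149 in mutants. Among the 6 tested Phip probe sets it had the largest genotype difference, 0.82 (SE 0.35, 95% interval 0.038 to 1.61), which did not pass the test (adjusted p = 0.627, 0.13 with the replicate block). Its shift between pairs was 0.77 (SE 0.24, adjusted p = 0.0277). The genotypes overlapped through mutant mice 1 and 2 and wild-type mouse 4. Probe set 1443522_s_at read 96.8, 96.0, 114 and 97.1 in wild type and 76.9, 121, 119.7 and 162 in mutants. Probe set 1451805_at read 39.5, 109, 96.7 and 87.9 in wild type and 65.0, 40.4, 78.7 and 72.3 in mutants. Neither was called for the shift, at 0.29 (SE 0.19, adjusted p = 0.263) and 0.41 (SE 0.26, adjusted p = 0.243). So 4 of the 6 tested probe sets were higher in replicates 3-4 and 2 were not called. The 3 Phip probe sets below the filter, 1425721_at, 1447037_at and 1447038_x_at, read 0.292 to 62.5.

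Brdt, on chromosome 5, read in overlapping ranges in both genotypes. Probe set 1435502_a_at read 2828, 3342, 3212 and 3702 in wild type and 2415, 2547, 3875 and 3602 in mutants. The genotype difference was -0.097 (SE 0.18, 95% interval -0.51 to 0.31), and the mutant values spanned the wild-type range. The shift between pairs was 0.38 (SE 0.11, adjusted p = 0.0246). After median centring it was 0.13 and no longer called. It was also lost without wild-type mouse 1 or 4 or mutant mouse 2, 3 or 4. Probe set 1450178_at read 852, 929, 1007 and 1133 in wild type and 821, 739, 945 and 903 in mutants, with a genotype difference of -0.20 (-0.53 to 0.13). Probe set 1444667_at read 336, 399, 432 and 431 in wild type and 491, 139.5, 519 and 441 in mutants. Mutant mouse 2 was the lowest of the 8 on both, and on 1444667_at it was far below the other mice. Its genotype difference was -0.15 (-0.98 to 0.68). All 3 probe sets had genotype differences below 0 with intervals that included 0, and 1 of 3 was called for the shift.

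**Figure D3:**
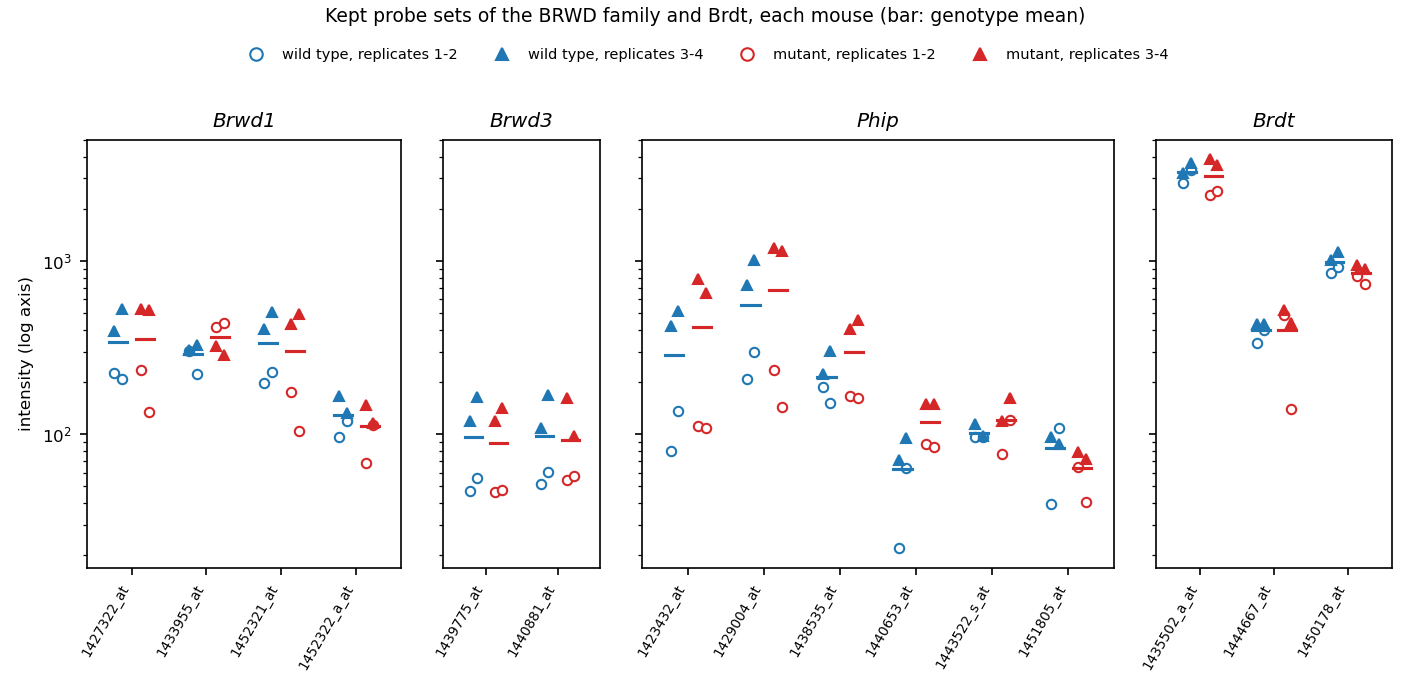
Intensity (logarithmic axis) of each mouse for the 15 kept probe sets of Brwd1, Brwd3, Phip and Brdt. Blue is wild type and red is mutant, open circles are replicates 1-2 and filled triangles replicates 3-4, and horizontal bars are genotype means; triangles lie above circles for 2 of the 4 Brwd1 probe sets (1427322_at and 1452321_at), for the 2 Brwd3 probe sets and for 3 of the 6 Phip probe sets, and red and blue overlap throughout.

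The other BET proteins, Brd2 and Brd3, are broadly expressed coactivators that tether the elongation machinery to acetylated chromatin. In wild type Brd2 read 3731 ± 775 and Brd3 1137 ± 198 (mean ± SD, n = 4). Levels of different genes come from different probes and are not compared. Their genotype differences were 0.056 (-0.35 to 0.46) and 0.17 (-0.21 to 0.54), with 95% intervals in parentheses here and below. Brd2 was among the 5 members whose shift between pairs was lowest, at 3929.8, 4080.3, 4320.4 and 2594 in wild type and 3527, 4409, 3997 and 3385 in mutants. That shift, -0.18 (SE 0.16, adjusted p = 0.39), was not called, and wild-type mouse 4 was well below the rest. Brd3's shift was -0.095 and not called. A second Brd2 probe set was called lower in replicates 3-4 (-0.80), as was 1 of the 4 Brd3 probe sets (-0.73).

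Among the acetyltransferases, Crebbp and Ep300 are paralogous coactivators. In wild type Crebbp read 1277 ± 103 and Ep300 823 ± 173. Their genotype differences were 0.15 (-0.14 to 0.44) and 0.11 (-0.28 to 0.49), and neither was called for the shift. Ep300's shift was 0.28 (SE 0.13, adjusted p = 0.117). Crebbp's shift, -0.14, was called lower after median centring (-0.38). The mean over its 3 probe sets gave a called rise of 0.40 instead, with 1 of them at 1.20. Kat2a, the GCN5 acetyltransferase of the SAGA and ATAC complexes, read 1007, 859, 869 and 915 in wild type and 1088, 1070.5, 874 and 784 in mutants. Its genotype difference was 0.053 (-0.28 to 0.39). Its shift, -0.22, was not called, but was after median centring (-0.46) and with its 3 probe sets averaged. In the fit over probe sets 1 of the 3 was called lower in replicates 3-4. Taf1, the largest subunit of the initiation factor TFIID, read 165, 311, 396 and 524 in wild type and 192, 172, 551 and 569 in mutants. Replicates 3-4 all lay above replicates 1-2, by 1.25 (SE 0.21, adjusted p = 0.00202), a 2.38-fold difference, and the genotype difference was -0.0052 (-1.08 to 1.07).

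Kat2b, the PCAF acetyltransferase and paralogue of Kat2a, was the member whose probe sets disagreed most about the genotype. The brighter, 1434037_s_at, read 1096, 1243, 1792 and 1966 in wild type and 1336, 1033, 2079 and 1810.3 in mutants. It was higher in replicates 3-4 by 0.70 (SE 0.11, adjusted p = 0.00165), a call kept in all 21 alternatives, with a genotype difference of 0.028 (-0.58 to 0.63). The dimmer, 1450821_at, read 277, 357, 329 and 225 in wild type and 54.3, 131, 185 and 165 in mutants. All 4 mutants lay below all 4 wild-type mice, and mutant mouse 1 was the lowest. The genotype difference of 1450821_at was -1.15 (SE 0.33, 95% interval -1.88 to -0.41), the largest of the 87 probe sets in size. It did not pass the limma test over 27022 probe sets: the adjusted p was 0.245 without a block, 0.0622 under the replicate block and 0.0876 with the pair block. The lowest adjusted p over its 23 alternatives was 0.0594. Without mutant mouse 1 the difference was -0.82. Within replicates 1-2 it was -1.70, and within replicates 3-4 -0.60. Its shift between pairs was not called, at 0.35 (SE 0.29, adjusted p = 0.363). The summed late spermatid markers were also lower in every mutant than in every wild-type mouse, and the endothelial and blood markers were higher. The part of these differences in this value was not tested.

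The acetyltransferase scaffolds Brpf1, Brpf3 and Brd1 hold together complexes of the MYST acetyltransferases, and Brd8 belongs to the TIP60 complex. Brpf1 was the only one of the 35 genes whose genotypes did not overlap, against 7.79% of all genes (2.53% with the mutants above and 5.26% with the mutants below). It read 759.6, 661, 714 and 649.5 in wild type and 919, 912, 881 and 782 in mutants. The lowest mutant was above the highest wild-type mouse. The difference was 0.32 (SE 0.12, 95% interval 0.041 to 0.60), a 1.25-fold rise in the estimate, and it did not pass the test: the limma adjusted p was 0.409, 0.195 with the replicate block and 0.147 with the pair block. Brpf1 has 1 tested probe set, so no other probe set bears on it. Brd1 read 965 ± 116 in wild type with a genotype difference of 0.16 (-0.14 to 0.46), and Brpf3 read 450.1 ± 60.1 with -0.12 (-0.51 to 0.28). Neither was called for the shift, at 0.016 and -0.11, and Brpf1 was not either, at -0.097. The dimmer of the 2 tested Brpf3 probe sets was called lower in replicates 3-4 (-0.46). Brd8 read 701, 680.4, 1162 and 1188 in wild type and 949.7, 724, 1265 and 1186 in mutants. Replicates 3-4 lay above replicates 1-2 without overlap, by 0.65 (SE 0.11, adjusted p = 0.00228). Its genotype difference was 0.16 (-0.42 to 0.73), and 4 of its 6 tested probe sets were called higher in replicates 3-4.

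SWI/SNF remodellers slide and evict nucleosomes, driven by the ATPase Smarca4 or its paralogue Smarca2. Smarca4 read 4192, 3885, 3473 and 4001 in wild type and 4627, 5388, 3405 and 3209 in mutants. It was 1 of the 2 genes that fell in replicates 3-4, at -0.35 (SE 0.12, adjusted p = 0.035), and the fall came mainly from the mutants, at -0.59 against -0.11 in wild type. It was lost under quantile normalization (-0.22) and without wild-type mouse 1 or 3 or mutant mouse 2, 3 or 4. Its second probe set, 1426805_at, moved the other way, at 540.3, 522, 1457 and 612 in wild type and 625, 673, 1043 and 1326 in mutants, a shift of 0.83 (SE 0.23, adjusted p = 0.0154). The genotype differences were 0.067 (-0.33 to 0.47) and 0.30 (-0.53 to 1.12). Pbrm1, the polybromo subunit with the family's longest row of bromodomains, read 1151, 1728, 1429 and 2503 in wild type and 1515, 1167, 2383 and 2046 in mutants. It was higher in replicates 3-4 by 0.57 (SE 0.20, adjusted p = 0.0466), with overlap, and was lost without wild-type mouse 1 or 4 or mutant mouse 2, 3 or 4 and after median centring (0.33). All 3 of its probe sets were called higher in the fit over probe sets. Smarca2 read 1549 ± 258 in wild type, Brd7 1472 ± 150.5 and Brd9 1210.1 ± 62.2. Their genotype differences were -0.10 (-0.45 to 0.25), 0.038 (-0.25 to 0.33) and 0.037 (-0.21 to 0.29), and no probe set of these 3 genes was called for the shift, which was 0.16, 0.16 and 0.072.

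Baz1a, Baz1b, Baz2a and Baz2b are partners of the ISWI ATPases, and Bptf and Cecr2 are subunits of related remodellers. Baz1a, known for its high testis expression, read 1639, 2606, 2894 and 3522 in wild type and 1729, 1685, 3949 and 3674 in mutants. The pairs did not overlap, with a shift of 0.89 (SE 0.17, adjusted p = 0.00306), and wild-type mouse 2 was the highest of the lower pair. Its genotype difference was -0.01 (-0.79 to 0.77). Bptf, the largest subunit of NURF, read 2333, 2554, 2773 and 3308 in wild type and 2251, 2012, 3497 and 3109 in mutants. Its shift was 0.47 (SE 0.11, adjusted p = 0.00765), without overlap, and was 0.23 after median centring, where it was not called. All 3 of its probe sets were called higher. Baz1b read 894, 890.3, 1165 and 1267 in wild type and 1155, 885, 1213 and 1214 in mutants. Its shift was 0.35 (SE 0.11, adjusted p = 0.0323), without overlap. It was lost after median centring (0.11) and without any 1 of 7 mice, mutant mouse 1 being the exception. The mean of its 2 probe sets turned the sign, to -0.052. Baz2a, part of the nucleolar remodelling complex NoRC, read 2532, 2404, 2020.1 and 2693 in wild type and 3117, 2705, 2283 and 2044 in mutants, and its shift of -0.25 (SE 0.12, adjusted p = 0.13) was called only after median centring (-0.49) or without wild-type mouse 4. In wild type Baz2b read 472 ± 58.5 and Cecr2 139 ± 46.0. Their shifts, 0.28 (SE 0.13, adjusted p = 0.114) and 0.39 (SE 0.19, adjusted p = 0.126), were not called, although the pairs did not overlap in either. With its 3 probe sets averaged Baz2b was called higher, as was 1 of the 3 in the fit over probe sets. The genotype differences were 0.088 (-0.30 to 0.48) for Baz1b, 0.062 (-0.30 to 0.43) for Baz2a, 0.077 (-0.31 to 0.46) for Baz2b, -0.037 (-0.49 to 0.42) for Bptf and -0.20 (-0.72 to 0.32) for Cecr2.

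Both AAA ATPases with a bromodomain rose in replicates 3-4. Atad2, a cofactor often expressed in dividing cells, read 466, 799, 774 and 918 in wild type and 469.5, 349, 1043 and 1014 in mutants, a shift of 0.88 (SE 0.23, adjusted p = 0.0123). Wild-type mouse 2 overlapped with replicates 3-4. Atad2b read 544, 884, 1208 and 1451 in wild type and 876, 421, 1400.1 and 1333 in mutants, a shift of 1.03 (SE 0.23, adjusted p = 0.00679), without overlap. Their genotype differences were -0.15 (-1.002 to 0.71) and -0.07 (-1.02 to 0.88). A dimmer Atad2b probe set, 1446719_at, read 82.1, 75.6, 113 and 93.9 in wild type and 126, 137, 119 and 141 in mutants. All mutants lay above all wild-type mice there, with a difference of 0.46 (SE 0.17, 95% interval 0.074 to 0.85) that did not pass the test (adjusted p = 0.502, 0.3 with the replicate block). It, Brpf1's probe set and 1450821_at of Kat2b were the 3 of 87 without overlap between the genotypes, against 6.07% of all tested probe sets (2.27% with the mutants above and 3.8% with the mutants below).

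Trim28, the corepressor that KRAB zinc finger proteins recruit to silence transposable elements, was the member that fell most in replicates 3-4. It read 12559.8, 12830.4, 9688 and 8637 in wild type and 15499, 15255, 9707 and 9599 in mutants. All 4 values of replicates 3-4 lay below those of replicates 1-2, with a shift of -0.57 (SE 0.064, adjusted p = 0.000425), and the call held in all 21 alternatives. Both of its probe sets were called lower. The genotype difference was 0.18 (-0.30 to 0.65), or 0.18 (0.014 to 0.34) with the replicate block, with an adjusted p of 0.254. It was the second member, beside Brpf1, with an unadjusted p under 0.05 in that fit. Trim24, a paralogue and nuclear receptor cofactor, read 2138, 2756, 3023 and 3202 in wild type and 2234, 2133, 3031 and 3031 in mutants. It was higher in replicates 3-4, by 0.41 (SE 0.097, adjusted p = 0.00836), without overlap, but at 0.17 and not called after median centring. Trim33, which binds Smad proteins, read 1347, 2004, 1867 and 2239 in wild type and 1751, 1251, 2386 and 2367 in mutants, a shift of 0.50 (SE 0.16, adjusted p = 0.036). The Trim33 pairs overlapped through wild-type mice 2 and 3, and its call was lost without wild-type mouse 1 or 4 or mutant mouse 2, 3 or 4 and after median centring (0.25). Trim66, a member of the same group that is known from testis, was dim, at 65.6, 91.1, 80.4 and 79.3 in wild type and 55.3, 63.3, 78.9 and 53.6 in mutants. It had the lowest genotype difference of the 35, -0.28 (SE 0.18, 95% interval -0.68 to 0.13), with an adjusted p of 0.805 and overlapping genotypes. Its shift of 0.074 was not called. For Trim24 the genotype difference was -0.095 (-0.50 to 0.31), and for Trim33 0.033 (-0.51 to 0.58).

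Kmt2a, a histone H3 methyltransferase, read 300.4, 337, 399 and 461 in wild type and 448, 304, 607 and 524 in mutants. It was higher in replicates 3-4 by 0.50 (SE 0.15, adjusted p = 0.0219), with overlap through mutant mouse 1. The call was lost under quantile normalization (0.34), after median centring (0.26) and without wild-type mouse 1 or 4 or mutant mouse 2, 3 or 4. Its genotype difference was 0.29 (SE 0.23, 95% interval -0.23 to 0.82), the third highest of the 35. Zmynd8, a reader of acetylated and methylated histones, read 1397, 1108, 1562 and 2859 in wild type and 1464, 1262, 1623 and 2271 in mutants. The pairs did not overlap, with a shift of 0.63 (SE 0.20, adjusted p = 0.0309), and mouse 4 of both genotypes was well above mouse 3. The call was lost after median centring (0.38) and without wild-type mouse 1, 2 or 4 or mutant mouse 2 or 4. A dim Zmynd8 probe set, 1458617_at, read 52.9, 20.8, 98.3 and 48.7 in wild type and 99.7, 52.7, 163 and 101 in mutants, with a genotype difference of 0.79 (SE 0.39, 95% interval -0.082 to 1.66). With the replicate block its adjusted p was 0.0835. In each replicate number the mutant was above the wild-type mouse. Zmynd11, a reader tied to elongating polymerase, read 1659.5 ± 90.1 in wild type, with a genotype difference of 0.14 (-0.12 to 0.39) and a shift of 0.0026 that was not called. In the fit over probe sets 1 of its 3 was called higher in replicates 3-4, and the highest shift was 0.66.

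Probe sets of the same member gene often moved differently between the replicate pairs. Of the 87 tested probe sets 44 were called, against 40.4% of all probe sets: 37 were higher in replicates 3-4 (22.9%) and 7 lower (17.5%). At least 1 called probe set was found for 26 of the 35 genes, against 49.7% of all genes. Genes with more probe sets have more chances of a call. Among genes with several tested probe sets it was 24 of 29 members, against 64.5% of 5872 genes. Of the 29 genes with several tested probe sets, 13 had both a called rise and an uncalled probe set. For 5 of the 29 (Brwd3, Pbrm1, Baz1a, Bptf and Trim33) every tested probe set rose. Smarca4 was the 1 gene with a called rise and a called fall. The spread was widest for Phip, whose 6 probe sets ran from 0.29 to 2.27, and next widest for Brwd1, from -0.093 to 1.35. Between the genotypes, 13 of the 29 had probe sets of opposite sign, none of them called in any of the 3 fits. No share over all genes was computed for these patterns of agreement, so the counts describe the members alone. Larger shifts went with longer genomic spans: over the 35 genes, the shift and the log2 span of the gene in the RefSeq table of assembly GRCm38.p6 had a Spearman correlation of 0.50, against 0.26 over 13760 genes. These points share the 8 arrays and are a description.

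**Figure D4:**
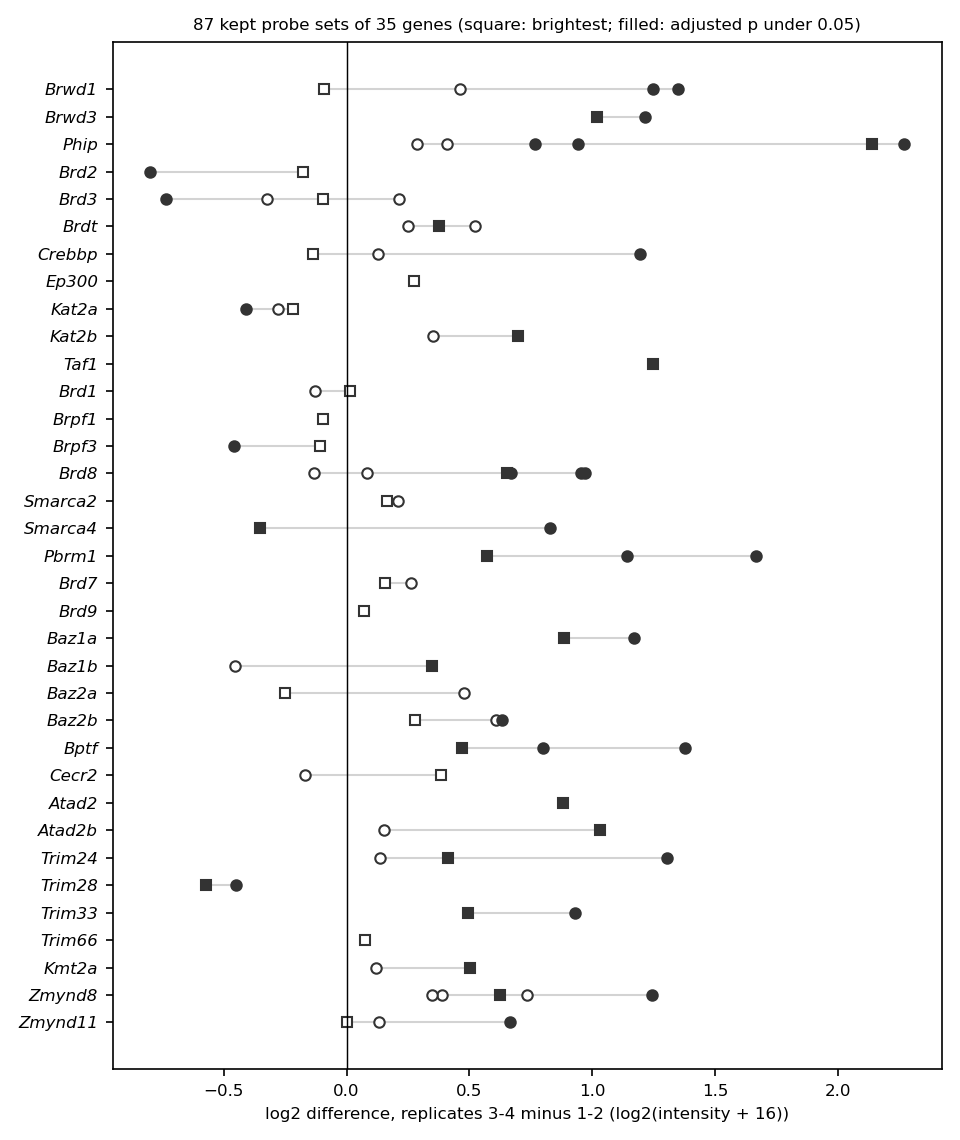
Shift between replicate pairs (replicates 3-4 minus 1-2, horizontal axis, log2(intensity + 16)) of each of the 87 kept probe sets, 1 line per gene. Squares mark the probe set with the highest mean and filled symbols those with an adjusted p under 0.05; both Brwd3 probe sets are filled, whereas those of Brwd1 and Phip are split between filled and open.

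Whether the genotype difference itself changed between the replicate pairs was tested as an interaction. limma called 0 of 35 members and 0 of 87 probe sets, against a background of 0% of genes and 0% of probe sets. At an unadjusted p under 0.05 limma gave 5 members and 738 genes in all (5.35%). The 5 were Brwd1 (-0.73), Brdt (0.42), Brpf3 (-0.60), Smarca4 (-0.48) and Atad2 (0.86), each with an adjusted p of 0.738. A negative value means that the mutant minus wild-type difference was lower in replicates 3-4. The genotype difference had the same sign in both pairs for 16 members and opposite signs for 19. Without mutant mouse 2 the interaction called 352 genes, of which 0 were members.

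The partners of the members were followed through 9 lists of related genes. In the 3 genotype fits 1 gene of these lists was called: Sgf29, a chromatin-reading subunit of the SAGA complex, among 14 tested partners of the acetyltransferase members. Sgf29 read 2303, 2129.7, 1675 and 1218 in wild type and 752, 1392, 729.6 and 888 in mutants. Mutant mouse 2 overlapped with wild-type mouse 4. The difference was -0.96 (SE 0.26, 95% interval -1.55 to -0.36). It was called lower with the replicate block (adjusted p = 0.0436) and the pair block (0.0428), and was not called without a block (0.169). Among all 13787 genes, 3.45% were called under the replicate block and 2.63% under the pair block. All 9 lists together, whose tested sizes follow, held only this 1 call in either fit. That count was not tested against the shares of all genes, so Sgf29 does not show an excess among the partners. For the shift between replicate pairs, 22.2% of all genes were called higher and 20.3% lower, the background for the counts that follow. Histone deacetylases and sirtuins had 4 of 16 higher and 6 lower, with a median of -0.10. Acetyltransferases without a bromodomain had 2 of 10 higher and 2 lower (median 0.052). YEATS domain readers, another family that binds acetylated lysine, had 0 of 4 higher and 2 lower (-0.0018). SWI/SNF subunits without a bromodomain had 3 of 19 higher and 6 lower (-0.17), whereas the bromodomain subunits above had a median of 0.16. The ISWI, NURF and ACF partners had 4 of 7 higher and 2 lower (0.71), among them the ATPase Smarca5, which read 2079.5, 3219.6, 4290.3 and 5427 in wild type and 2391, 1706, 5946 and 5867 in mutants, a shift of 1.22 (SE 0.19, adjusted p = 0.00146). The core of the CUL4 ubiquitin ligases, for which WD repeat proteins can act as substrate receptors, had 1 of 6 higher and 3 lower (-0.15). The partners of the acetyltransferase members had 2 of 14 higher and 4 lower (-0.25), and the other TFIID subunits 1 of 13 higher and 3 lower (0.0073). The medians of all genes and of the members for this shift, 0.014 and 0.28, are given above. The difference between these lists and the members was not tested. Of 4 further bromodomain genes (Ash1l, Sp100, Sp110 and Sp140) none had a probe set that was tested.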

How the data were processed

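RNA of 8 whole testes was measured on Affymetrix arrays. The deposited table holds linear intensity values, and GCOS is the tool named for them, per the submitters' processing notes; its settings were not given in the sources used here. No detection calls were used, so the distance of dim probe sets from background is unknown, and precision is limited by the number of arrays. Of 45101 probe sets 64 are controls; of the rest 34945 carry 1 gene symbol in the platform annotation, 932 several and 9160 none, and 34754 symbols were updated through Entrez identifiers.

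Values were taken as log2(intensity + 16), which understates changes of dim probe sets. Probe sets with a mean above the 40th percentile were kept (27022). limma 3.58.1 (R 4.3.3, lmFit, eBayes with trend, two-sided, Benjamini-Hochberg over all features, threshold 0.05) compared the genotypes, the replicate pairs with genotype as covariate, and their interaction. The p-values rest on the spread between mice that is left after each fit's terms, moderated across features. Without a block that spread includes the difference between the replicate pairs. The genotype fits and the replicate pair fit over genes were first tested on simulated data. The interaction and the fits over probe sets were not. The genotype changes put into the simulated data were larger than any member gene's difference, so they do not show what size of change could be called among members. Every adjusted p comes from limma. Probe-set values come from the fit over all kept probe sets, gene values from the fit over 13787 genes.

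Both genotypes carry replicate numbers 1 to 4. Same-numbered mice deviated together from their genotype's mean (r of 0.515 to 0.677 in the 4 pairs). This comes from the data, not the labels. Only 1 of the 4 wild-type mice was closest to its own number, so pairing by number is not established. Members, 28 gene lists (9 of roles, 9 of partners, 10 of cell type markers) and alternatives were chosen with earlier results of these data known. Named in full were all probe sets of Brwd1, Brwd3, Phip and Brdt, members called or without overlap between genotypes, and the 5 largest shifts in each direction; 1446719_at, 1450821_at and 1458617_at, the second Smarca4 probe set and Smarca5 were added after their values were seen. Alternatives covered scaling, pseudocount, filter, variance model, array weights, probe set choice, threshold, blocks, and each mouse left out. Figures were drawn with matplotlib 3.10.9.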

Additional observations from a re-analysis of the deposited data

Results flagged for a closer look

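In 6 of 92 groups of 4 mice, 1 mouse stood apart from the other three: its gap to the nearest mouse, divided by the group's range, exceeded Dixon's critical value for 4 samples. Chance alone gives this in about 1 group in 20. In 4 of the 6 the mouse was mutant replicate 2, and it was the lowest.

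For Brd1, mutant mouse 1 was high, at 1218 against 1029.8 to 1032 in the other mutants (gap over range 0.987). Mutant mouse 2 was low for Brd7, at 1317 against 1546 to 1596 (0.837), for Baz1b, at 885 against 1155 to 1214 (0.844), and for Cecr2, at 89.4 against 123 to 128 (0.885). It was also low on the Brdt probe set 1444667_at, at 139.5 against 441 to 519 (0.872). On the Phip probe set 1443522_s_at, wild-type mouse 3 was high, at 114 against 96.0 to 97.1 (0.94).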

How the results depend on the processing

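No member was called between the genotypes in any alternative, and 9 of the member values in that comparison moved by more than 1 SD. The number of all genes called, 39, was 23 with a pseudocount of 1, 94 with 64, 22 with a filter at the 60th percentile, 697 with array weights, 0 at an adjusted p of 0.01, 0 within replicates 1-2, and 0 to 185 with 1 mouse left out. The replicate block gave 475 genes, the replicate pair block 363, and the pair block without mutant mouse 1 630; the replicate block changed no member's call. For probe sets, 30 became 55 with a pseudocount of 64, 659 with array weights, 0 at 0.01, 0 within replicates 1-2, 630 with the replicate block, 477 with the pair block, 689 with the pair block without mutant mouse 1, and 0 to 118 with 1 mouse left out. Between replicate pairs, 5857 genes and 18 members became 3553 and 10 at 0.01, 1110 and 4 within wild type, and 4335 to 6058 and 11 to 18 with 1 mouse left out. Interaction calls ranged from 0 to 352 genes with 1 mouse left out. Among members called with or without averaging of a gene's probe sets, averaging turned the sign of the shift for Brwd1 (0.74), Crebbp (0.40), Smarca4 (0.24) and Baz1b (-0.052). The probe sets of these genes disagree. Uncalled shifts that turned sign are not listed. For the other settings the cause was not tested. Dim probe sets limit what can be seen: Brwd3 and Trim66 had wild-type means below 100.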
